A study of Homo sapiens with 6 samples.

Results

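MHC class I molecules carry peptides cut from the proteins of a cell to its surface, where CD8+ T cells and natural killer cells read them. Here, 10 genes of this route were described out of 19775 genes measured: the heavy chains HLA-B, HLA-C, HLA-E and HLA-F, the light chain B2M, the peptide transporter genes TAP1 and TAP2, the loading factor TAPBP, and the immunoproteasome subunits PSMB8 and PSMB9. The list was chosen by gene function with the oncosphere against monolayer changes of these same arrays already known. Their values are therefore given as a description, with no test read from them. Every probe set that the array annotation gave exactly 1 of the 10 symbols was used, which made 26 of 54613 probe sets.

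The values came from Affymetrix Human Genome U133 Plus 2.0 arrays of MDA231-LM2 cells, a lung metastatic derivative of the human breast cancer line MDA-MB-231. The 3 monolayer cultures attached overnight, received fresh DMEM GlutaMAX with 10% fetal bovine serum and antibiotics, and were collected 48 h later. The 3 oncosphere cultures grew for 4 days in ultra-low adhesive plates in HuMEC medium, without serum, with 2% of the supplement B27 and, per ml, 10 ng of bFGF, 20 ng of EGF and 5 μg of human insulin. The study used this sphere culture to enrich for cells with stem cell properties. Attachment, serum, added factors and time in culture all differed between the groups and cannot be told apart, and all 6 samples were cultures of 1 cell line. In such bulk RNA, a change in the number of cells of one state and a change in RNA per cell cannot be told apart either.

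Intensity here is the normalized brightness of a probe set on a linear scale. It is not comparable between probe sets, so changes were read only within a probe set, and levels of marker genes give no more than a rough check of the cell type. Array medians lay between 112.6 and 114.1, with a median of 113.5 over all values and none below 48.02. Arrays of the same group correlated at 0.993 to 0.996 across probe sets on the log2 scale and arrays of different groups at 0.966 to 0.973. VIM and CD44, which mark the basal B type of line, had brightest values of 21040 and 7826.9 and were not called by their brightest probe sets. EGFR, the remaining marker of that list, reached 1297.5 and fell in oncospheres by 0.78 on the log2 scale (limma adjusted p = 0.0066). In 1 of the 3 genes of that list, different probe sets were called in opposite directions. Of 7 luminal markers, ESR1, PGR and CDH1 did not exceed 144.1, 81.6 and 82.2 on any array, while KRT18, KRT8, EPCAM and GATA3 reached 9280.2, 2899.8, 573.8 and 479.0. KRT18, KRT8 and EPCAM fell in oncospheres and the other 4 were not called. Of 9 leukocyte markers, 7 were measured, with a highest value of 213.0 (CD14) and summed intensities of 680 to 746 in monolayer and 701 to 783 in oncospheres. CD14 and LYZ rose in oncospheres, by 0.52 (limma adjusted p = 0.00661) and 0.45 (limma adjusted p = 0.00291), ITGAM fell and 4 were not called. PTPRC, which all leukocytes express, reached 85.3 at most, and LYZ 101.4. The part of these marker changes in the class I values was not tested.

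Peptides for class I are made mainly by the proteasome. Interferon-induced subunits can replace the constitutive catalytic subunits in newly built proteasomes, which changes the peptides produced. The TAP1-TAP2 transporter moves the peptides into the endoplasmic reticulum, where tapasin and chaperones hold empty heavy chains with beta-2-microglobulin until a peptide binds. Class I promoters are known for a kB element and an interferon-stimulated response element (ISRE) in front of an SXY module, which the NLRC5 coactivator uses through RFX, CREB family and NF-Y proteins.

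Stretches of the promoters are shown because 9 of the 10 genes changed the same way and the elements named above have known letters. RefSeq promoter windows of GRCh38.p14 (250 bases before to 50 after a transcription start) were found for 9 of the 10 genes, in 11 windows. Capitals mark the ISRE core (a pair of GAAA runs with any 2 bases between them), the kB letters (GGGNNTTCC, or the same with 1 more T), the Y box ATTGG that NF-Y binds and the X2 or CRE core TGACG, on either strand. The 3 heavy chain stretches have the same place relative to the start, and each is written 5′ to 3′ on the strand of its gene: HLA-B at chr6:31357225-31357374 (minus strand), HLA-C at chr6:31272138-31272287 (minus strand) and HLA-F at chr6:29723239-29723388 (plus strand).
HLA-B: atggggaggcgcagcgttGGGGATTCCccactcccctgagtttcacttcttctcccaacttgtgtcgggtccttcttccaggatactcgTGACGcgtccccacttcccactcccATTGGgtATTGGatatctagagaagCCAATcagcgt
HLA-C: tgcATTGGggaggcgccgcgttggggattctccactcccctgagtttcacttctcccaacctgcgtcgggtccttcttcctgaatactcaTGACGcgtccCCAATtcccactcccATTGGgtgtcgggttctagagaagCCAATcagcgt
HLA-F: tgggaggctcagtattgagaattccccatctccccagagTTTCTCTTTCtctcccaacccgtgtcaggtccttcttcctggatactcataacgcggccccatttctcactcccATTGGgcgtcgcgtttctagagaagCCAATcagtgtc

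The 3 heavy chain windows were closely alike. HLA-B and HLA-C shared 88.5% of aligned positions, HLA-B and HLA-F 79.2%, and HLA-C and HLA-F 78.5%, against 48.0% for HLA-B and B2M. All 3 kept a forward Y box 80 to 82 bases before the start and a reversed one 56 or 57 bases before it. The kB letters were found in HLA-B but not in the HLA-C or HLA-F window. The ISRE letters were found in HLA-F, 156 bases before the start, but not in HLA-B or HLA-C. A missing match says only that these exact letters are not in the window.

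The genes that act before and around peptide loading have other promoters. Shown for the same elements are B2M at chr15:44711367-44711476 (plus strand), TAP1 at chr6:32853765-32853844, TAP2 at chr6:32838765-32838804, TAPBP at chr6:33314079-33314138 and the second listed start of PSMB8 at chr6:32844038-32844077 (all minus strand).
B2M: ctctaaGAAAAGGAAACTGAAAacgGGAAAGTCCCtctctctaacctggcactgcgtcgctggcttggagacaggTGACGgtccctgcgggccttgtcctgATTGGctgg
TAP1: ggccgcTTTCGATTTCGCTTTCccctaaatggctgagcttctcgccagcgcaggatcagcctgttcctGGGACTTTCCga
TAP2: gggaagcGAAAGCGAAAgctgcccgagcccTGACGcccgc
TAPBP: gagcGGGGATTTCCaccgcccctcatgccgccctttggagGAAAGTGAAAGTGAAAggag
PSMB8: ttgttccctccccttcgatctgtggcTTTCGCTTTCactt

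These 5 stretches were cut to show matches, so each held the ISRE letters by choice. In B2M, TAP1 and TAPBP the letters occurred as 2 overlapping copies, and in PSMB8 the copy ran across the start itself. The PSMB9 window and the first listed PSMB8 window, both not shown, held neither the ISRE nor the kB letters. Over the members the ISRE core was present in 6 of 9 genes with a window. By window it was 6 of 11, against 3.57% of 35116 RefSeq promoter windows. With only bases before the start searched, the ISRE core was present in 5 of 9 genes, against 3.02% of windows. TAP1 and PSMB8 each had a second window, so this gene count and this share of windows differ in unit. TAP2, the 1 gene that was lower in oncospheres, also held the ISRE letters, 58 bases before its start. The part of these letters in the changes was not tested.

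The kB letters were present in 5 of 9 genes (HLA-B, B2M, TAP1, TAPBP and PSMB8). That was 5 of 11 member windows, against 7.89% of all windows. In TAPBP the shorter and longer forms of the kB letters overlapped. The interferon-gamma-activated site (GAS) letters TTCNNNGAA were present in TAP1 and PSMB8 only, 2 of 9 genes. By window this was 2 of 11, against 7.66% of all windows. The shorter motifs are common: the Y box was in 6 of 9 genes against 34.6% of windows, TGACG in 6 of 9 against 24.6%, and the Sp1 box GGGCGG (not capitalized above) in 6 of 9 against 45.0%. By window they were in 6, 6 and 8 of the 11 member windows. TAP1 and PSMB9 lie head to head on chromosome 6 on opposite strands, with 488 bases between their starts and 13 bases shared by their windows. Their log2 changes, given below with the arrays, were 0.57 and 1.16.

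Of the 10 genes, represented by their brightest probe set, 9 were higher in oncospheres and 1, TAP2, was lower. The median log2 change over the 10 genes was 1.15, against -0.020 over all genes. The 4 heavy chains, TAPBP and PSMB9 were more than 2-fold higher on the linear scale, and B2M, TAP1 and PSMB8 less. In the limma fit over all probe sets, 9 member genes were called higher at an adjusted p below 0.05 and 1 lower, where 17.3% of all genes were called higher, 17.5% lower and 34.9% either way. Over 2-fold higher were 6 member genes, against 2.79% of all genes. All oncosphere arrays were above all monolayer arrays in 9 of the 10 genes and below them in TAP2, against 22.3% and 24.6% of all genes. Since this contrast was known when the genes were chosen, nothing is read from these counts.

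**Figure D1:**
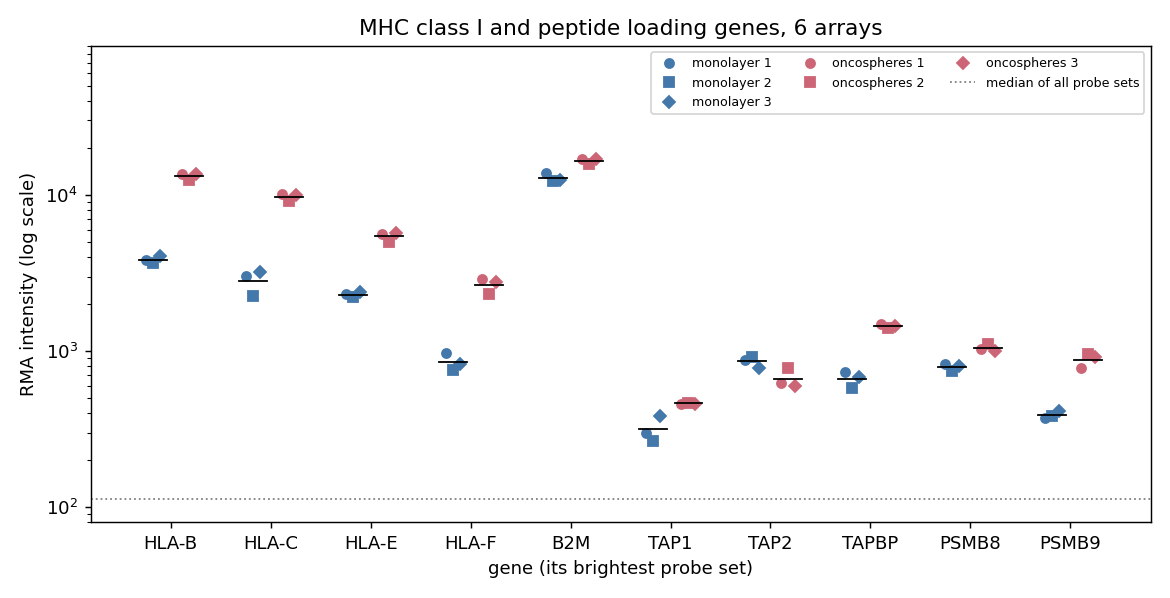
Intensity of the brightest probe set of each of the 10 genes on all 6 arrays (vertical axis, log scale). Blue symbols are monolayer arrays and red symbols oncosphere arrays, with a shape for each replicate, short lines for the group means and a dotted line for the median of all probe sets (113.5). The red symbols lie above the blue ones in every gene except TAP2, where they lie below.

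HLA-B, a classical heavy chain that presents peptides to CD8+ T cells, had intensities of 3828, 3650 and 4078 in the monolayer arrays and 13687, 12477 and 13687 in the oncosphere arrays. The lowest oncosphere array was far above the highest monolayer array, and the spread within either group was small against the gap. The log2 change was 1.79 (SE 0.068, n = 3 per group), or 3.45-fold. The other probe sets of HLA-B changed by 1.62 and 1.74.

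HLA-C, a classical heavy chain that is also the main ligand of killer cell immunoglobulin-like receptors, was measured by 4 probe sets. The brightest had intensities of 3022, 2248 and 3211 in monolayer and 10175, 9101 and 10018 in oncospheres. Monolayer 2 was lower than the other monolayer arrays here, which widened the error of the change (log2 change 1.80, SE 0.13, n = 3 per group, 3.49-fold). The dimmest had 1364, 1407 and 1463 in monolayer and 5839, 6403 and 6342 in oncospheres. With a log2 change of 2.13 (SE 0.062), or 4.39-fold, it was the largest change among the 26 probe sets.

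HLA-E, a nonclassical heavy chain that presents leader peptides of other class I molecules to the NKG2A receptor, had intensities of 2309, 2205 and 2386 in monolayer and 5649, 4982 and 5689 in oncospheres. All oncosphere arrays were above all monolayer arrays, with oncospheres 2 the lowest of them. The log2 change was 1.24 (SE 0.071, n = 3 per group), or 2.36-fold. HLA-E also had a probe set without the _x_at ending, which on this array marks probes that match other sequences too. That probe set had 543, 632 and 713 in monolayer and 1654, 1360 and 1729 in oncospheres, again without overlap, for a log2 change of 1.33 (SE 0.12) or 2.52-fold.

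HLA-F, a nonclassical heavy chain known to reach the surface also without peptide, had intensities of 971, 753.5 and 823 in monolayer and 2882, 2329 and 2767 in oncospheres. The groups were well apart, and the log2 change was 1.65 (SE 0.11, n = 3 per group), or 3.14-fold. Its 1 probe set without the _x_at ending was dim, with 95.6, 86.4 and 103.4 in monolayer and 140.7, 140.9 and 131.4 in oncospheres. It changed in the same direction by 0.54 on the log2 scale (SE 0.077), or 1.45-fold, at intensities around the array median.

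Of the 13 heavy chain probe sets, 11 ended in _x_at. The 12 with a monolayer mean over 500 changed by 2.36-fold to 4.39-fold. Heavy chain genes are closely alike in sequence, so a probe of one can take up RNA of another, and the 4 genes are not independent readings. How much of each value came from another heavy chain was not tested. The probe sets without the _x_at ending gave 2.52-fold for HLA-E and 1.45-fold for the dim one of HLA-F.

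**Figure D2:**
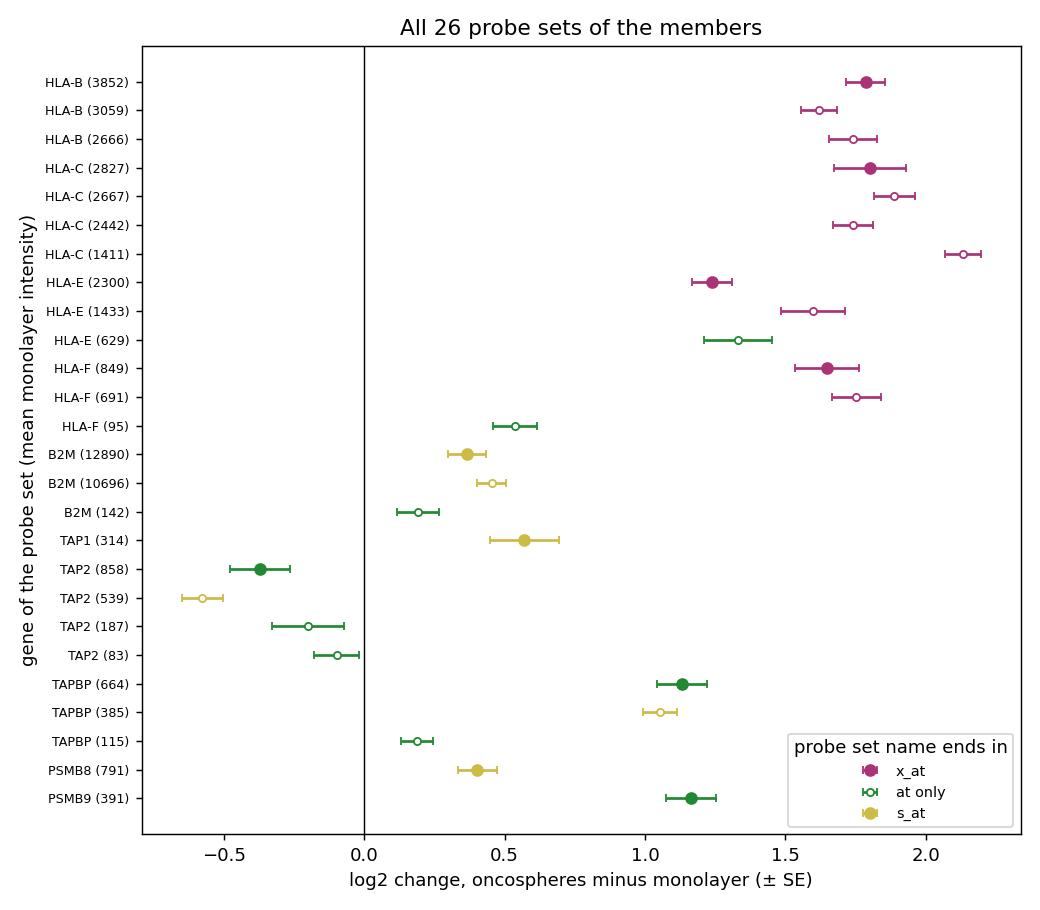
Log2 change (oncospheres minus monolayer, horizontal axis) with its standard error for all 26 probe sets, with the mean monolayer intensity of each in brackets. Colours show the ending of the probe set name and filled symbols mark the brightest probe set of a gene. Heavy chain probe sets gather between 1.24 and 2.13 except the dim one of HLA-F (0.54), and the 4 TAP2 probe sets lie left of 0.

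B2M encodes beta-2-microglobulin, the light chain that all class I heavy chains need for a stable fold. Its brightest probe set had 13879, 12257 and 12534 in monolayer and 16973, 15809 and 17026 in oncospheres. The groups did not overlap, but the gap was small beside that of the heavy chains, with a log2 change of 0.37 (SE 0.069, n = 3 per group), or 1.29-fold. A second bright probe set had a log2 change of 0.45 (SE 0.053), or 1.37-fold. The dim probe set had 132.3, 142.7 and 151.5 in monolayer and 169.7, 150.9 and 166.3 in oncospheres, which overlapped, and was not called.

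TAP1, a subunit of the transporter that pumps cytosolic peptides into the endoplasmic reticulum, had intensities of 298.8, 263.6 and 380.8 in monolayer and 456.0, 467.5 and 460.8 in oncospheres. The oncosphere arrays lay close together while the monolayer arrays were spread, with monolayer 3 nearest to the oncospheres. The log2 change was 0.57 (SE 0.12, n = 3 per group), or 1.49-fold.

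TAP2, the partner subunit without which TAP1 does not transport peptide, went the other way. Its brightest probe set had 875.8, 916.5 and 783.0 in monolayer and 624.5, 774.3 and 598.5 in oncospheres. All oncosphere arrays were below all monolayer arrays, but oncospheres 2 came close to monolayer 3. The log2 change was -0.37 (SE 0.11, n = 3 per group), with monolayer 1.30-fold above oncospheres, and -0.49 with oncospheres 2 left out. This probe set was no longer called lower without monolayer 1, monolayer 2, oncospheres 1 or oncospheres 3, nor with cyclic loess scaling. A second probe set had 524.2, 564.4 and 527.2 in monolayer and 340.4, 394.6 and 349.8 in oncospheres, a clearer gap, for a log2 change of -0.58 (SE 0.073) or 1.49-fold lower in oncospheres, and stayed called with each array left out in turn. The remaining probe sets of TAP2, at monolayer means of 187 and 82.8, changed by -0.20 and -0.10, overlapped between groups and were not called.

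TAPBP encodes tapasin, which bridges TAP and the empty heavy chain and favours the binding of stable peptides. Its brightest probe set had 728.7, 578.7 and 685.1 in monolayer and 1495.8, 1393.7 and 1456.5 in oncospheres. The oncosphere arrays lay within a narrow band well above the monolayer arrays, for a log2 change of 1.13 (SE 0.089, n = 3 per group), or 2.19-fold. A second probe set changed by 1.05 (SE 0.060), or 2.08-fold. The third was near the array median, with 114.9, 112.9 and 116.2 in monolayer and 133.4, 124.5 and 133.8 in oncospheres, and changed by 0.19.

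PSMB9 encodes an immunoproteasome subunit that takes the place of PSMB6. Its intensities were 372.9, 385.9 and 415.1 in monolayer and 774.3, 954.3 and 910.8 in oncospheres. The groups were clearly apart, with a log2 change of 1.16 (SE 0.088, n = 3 per group), or 2.24-fold. PSMB8, the immunoproteasome subunit that takes the place of PSMB5, had 828.2, 745.8 and 798.5 in monolayer and 1029.6, 1112.7 and 995.7 in oncospheres. Here too no arrays overlapped, but the log2 change was 0.40 (SE 0.068), or 1.32-fold. Each of these genes had 1 probe set.

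Of the 26 probe sets, 21 were called higher, 2 lower (both TAP2) and 3 were not called, where 14.5% of all probe sets were called higher, 14.2% lower and 28.7% either way. The oncosphere arrays were all above the monolayer arrays in 21 probe sets, all below in 2 and overlapped in 3, where 19.9% of all probe sets were above and 21.7% below. The same arrays tended to sit at the edge of their group. Oncospheres 2 was the lowest oncosphere array in 6 of the 10 genes (the heavy chains, B2M and TAPBP) and the highest in TAP1, TAP2, PSMB8 and PSMB9. Monolayer 2 was the lowest monolayer array in all genes but TAP2 and PSMB9. Without oncospheres 2 the median log2 change of the 10 genes was 1.13.

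Among all 19775 genes ordered by log2 change from the highest, HLA-B stood at rank 117, just below HLA-C, HLA-F at 145, HLA-E at 342, PSMB9 at 391 and TAPBP at 424. TAP1, PSMB8 and B2M stood at ranks 1495, 2233 and 2474. TAP2 was at rank 17532. The heavy chains thus lay in the sparse upper tail and the light chain and TAP1 on its shoulder.

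**Figure D3:**
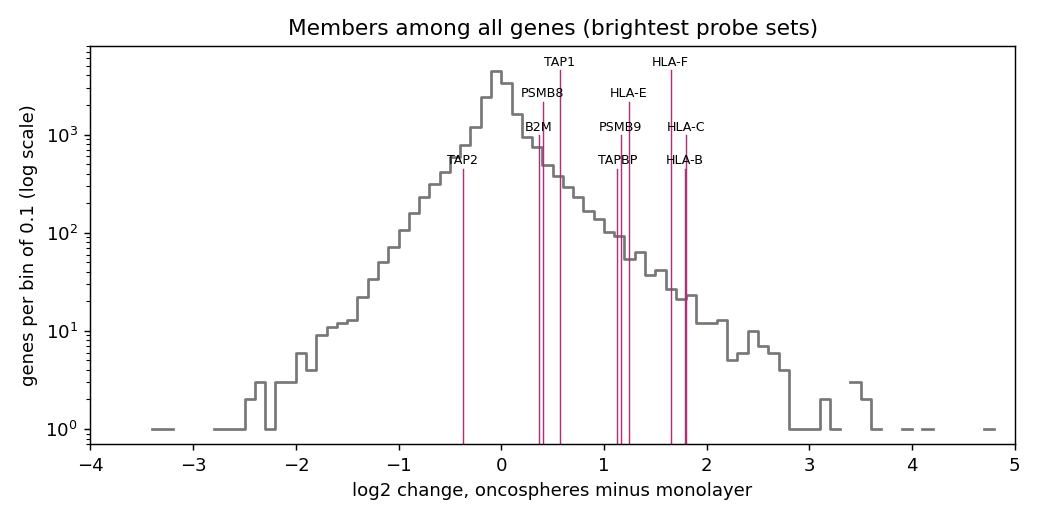
Number of genes in each step of 0.1 of log2 change (oncospheres minus monolayer; grey line, vertical axis on a log scale, gaps where no gene fell) over 19775 genes, with a vertical line for each of the 10 genes. HLA-B (1.79) and HLA-C (1.80) nearly coincide far to the right, and TAP2 (-0.37) is the only line left of 0.

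The other genes of the pathway were taken from 8 lists by function, with 57 of 64 genes measured and 7 not analysed here. Of the 57, limma called 28 higher and 13 lower at an adjusted p below 0.05, and 16 were not called, beside 17.3% of all genes called higher and 17.5% lower. Their median log2 change was 0.20. In 4 of the 57 genes, different probe sets were called in opposite directions. A p-value here covers only the variation among cultures of a single line.

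Among class I-like heavy chains, 4 of 5 measured rose and 1 was not called, where 17.3% of all genes were called higher. HLA-G, a nonclassical heavy chain best known from the placenta, had 2163.5, 2318.6 and 2368.4 in monolayer and 6494.3, 5743.5 and 6349.8 in oncospheres (log2 change 1.44, SE 0.070, limma adjusted p = 6.22e-06). All 4 of its probe sets ended in _x_at, and the share of other heavy chains in their signal was not tested. HFE, a class I-like regulator of iron uptake, rose by 0.83 (SE 0.068, limma adjusted p = 6.84e-05), with 8 of its 15 probe sets called. FCGRT, the heavy chain of the neonatal Fc receptor, rose by 0.72 (SE 0.12, limma adjusted p = 0.00204), less in oncospheres 2 (256.7) than in oncospheres 1 and 3 (361.0 and 326.0).

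By their brightest probe sets, all 6 measured chaperones and editors of the endoplasmic reticulum rose, by 0.21 to 0.84 on the log2 scale. Over all genes, 17.3% were called higher. In 1 of the 6 genes, different probe sets were called in opposite directions. PDIA3, the disulfide isomerase that pairs with tapasin in the loading complex, rose by 0.84 (SE 0.060, limma adjusted p = 3.64e-05). TAPBPL, which encodes the peptide editor TAPBPR, rose by 0.76 (SE 0.063, limma adjusted p = 6.84e-05), from 110.7 to 121.8 in monolayer to 189.5 to 203.1 in oncospheres. Its monolayer values lay around the array median, so its fold is uncertain. The log2 change of TAPBPL was 1.36 with the 5th percentile subtracted. CALR, the lectin chaperone calreticulin, rose by 0.73 (SE 0.081, limma adjusted p = 3.11e-04). These chaperones also fold many other secreted proteins.

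The peptidases that trim or destroy peptides were mixed, with 3 higher, 2 lower and 2 not called of 7 measured. Of all genes, 34.9% were called either way. ERAP1, which trims peptides in the endoplasmic reticulum to fit class I, rose by 0.71 (SE 0.098, limma adjusted p = 9.67e-04). With probe sets ending in _x_at or _s_at left out, its change was 0.41 and no longer called (limma adjusted p = 0.123). The cytosolic aminopeptidase NPEPPS rose by 0.40 (SE 0.077, limma adjusted p = 0.0053), with 1 of its 3 probe sets called. THOP1, a cytosolic endopeptidase known to degrade class I peptides, fell, with a log2 change of -0.50 (SE 0.065, limma adjusted p = 6.56e-04).

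By their brightest probe sets, the inducible catalytic subunits were higher in oncospheres and the constitutive core was lower or not called. PSMB10, the third inducible catalytic subunit, which takes the place of PSMB7, had 635.7, 624.1 and 704.3 in monolayer and 1101.0, 1183.8 and 977.7 in oncospheres, and rose by 0.73 (SE 0.085, limma adjusted p = 3.95e-04). PSME1, a subunit of the PA28 cap that opens the core, rose by 0.71 (SE 0.056, limma adjusted p = 5.54e-05). POMP, a chaperone of proteasome assembly, was not called, with a log2 change of -0.24 (limma adjusted p = 0.052) and all oncosphere arrays below all monolayer arrays. So 2 of 3 measured genes of this list rose, where 17.3% of all genes were called higher.

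Of the 13 measured genes of the constitutive core, 9 fell and 4 were not called by their brightest probe sets. All 13 log2 changes of these probe sets were below 0, with a median of -0.27. Over all genes, 17.5% were called lower. In 2 of the 13 genes, different probe sets were called in opposite directions. PSMB7, the constitutive counterpart of PSMB10, had 5798.6, 6159.4 and 6300.5 in monolayer and 3868.0, 4231.3 and 4190.6 in oncospheres (log2 change -0.57, SE 0.064, limma adjusted p = 3.10e-04). PSMB5, the counterpart of PSMB8, had 4370.7, 4056.5 and 3739.6 against 3111.2, 3336.4 and 3092.2 (log2 change -0.35, SE 0.073, limma adjusted p = 0.00761). PSMB6, the counterpart of PSMB9, had 5702.7, 5599.7 and 5655.0 against 4531.1, 4870.4 and 4710.7 (log2 change -0.27, SE 0.055, limma adjusted p = 0.00756).

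Each constitutive catalytic subunit was thus lower in oncospheres on all arrays, and each inducible one higher. The structural ring subunits PSMA1 and PSMA2 fell too, with log2 changes of -0.50 (limma adjusted p = 4.49e-04) and -0.38 (limma adjusted p = 0.0142). The PSMA2 call was lost without monolayer 1, monolayer 3, oncospheres 1 or oncospheres 3 (limma adjusted p of 0.056, 0.053, 0.0543 and 0.0522). A dimmer second probe set of PSMB7 was not called.

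**Figure D4:**
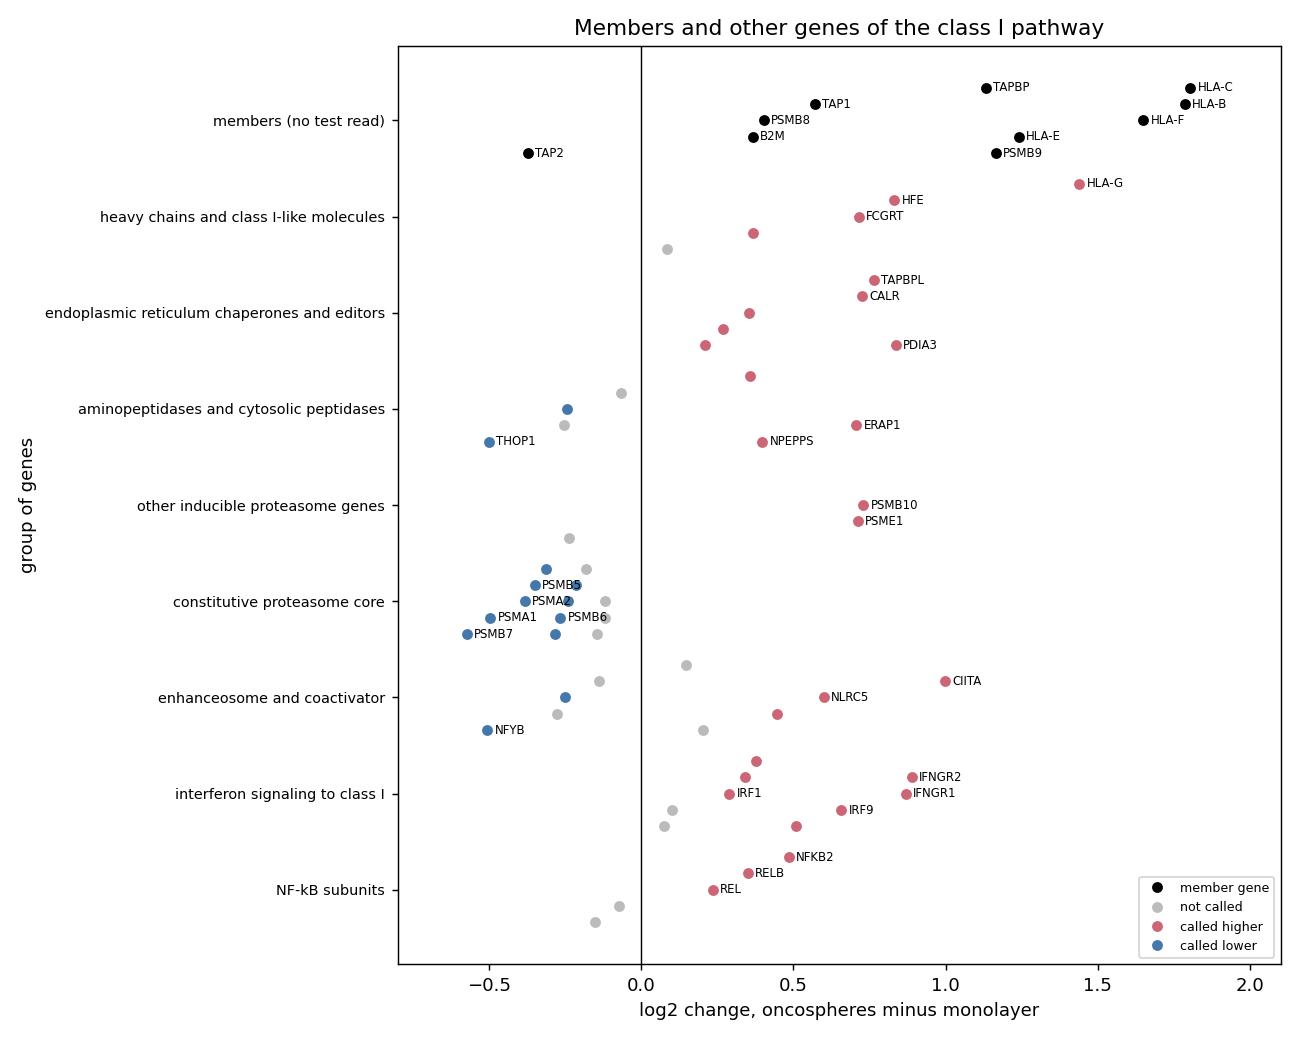
Log2 change (oncospheres minus monolayer, horizontal axis) of the brightest probe set of each gene, by group of genes (vertical axis). Black points are the 10 genes described, red and blue points other pathway genes called higher or lower by limma, and grey points genes not called. The constitutive proteasome core lies entirely left of 0, while all 6 chaperones and editors lie right of it.

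Among the genes of the promoter complex, 3 of 9 rose, 2 fell and 4 were not called, where 34.9% of all genes were called either way. In 1 of the 9, different probe sets were called in opposite directions. NLRC5, the coactivator of class I genes, was dim, with 148.5, 160.2 and 146.9 in monolayer and 241.4, 215.1 and 234.4 in oncospheres, and rose by 0.60 (SE 0.068, limma adjusted p = 3.32e-04). CIITA, the related coactivator of class II genes, had 98.6, 111.6 and 113.3 in monolayer and 211.2, 214.7 and 219.5 in oncospheres, a rise of 1.00 (SE 0.069, limma adjusted p = 2.91e-05). Its monolayer values lay at or just below the array median, so its fold is uncertain. Its other probe sets, of which 1 was brighter in monolayer, were not called, and the mean of all 3 changed by 0.30 (limma adjusted p = 0.00115). NFYB, a subunit of the NF-Y complex that binds the Y box, fell, with a log2 change of -0.51 (SE 0.068, limma adjusted p = 7.99e-04).

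Of the genes that relay interferon signals to class I promoters, 7 of 9 measured rose and 2 were not called. The share of all genes called higher was 17.3%. The interferon-gamma receptor chains IFNGR2 and IFNGR1 rose by 0.89 (SE 0.11, limma adjusted p = 6.29e-04) and 0.87 (SE 0.086, limma adjusted p = 1.68e-04). With probe sets ending in _x_at or _s_at left out, only a dim one of IFNGR1 remained (64.4 to 71.1 in monolayer). It changed by 0.20 (limma adjusted p = 0.216). A second bright probe set of IFNGR1, left out in that setting, rose by 0.91 (SE 0.093). IRF9, the DNA-binding partner in the complex that recognises the ISRE, rose by 0.66 (SE 0.053, limma adjusted p = 6.18e-05). IRF1, which binds the ISRE of class I genes, rose by 0.29 (SE 0.081, limma adjusted p = 0.0289) and was no longer called without oncospheres 2 (limma adjusted p = 0.0719), nor without monolayer 1, monolayer 2 or oncospheres 1 (limma adjusted p of 0.0607, 0.0868 and 0.101).

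Of the NF-kB subunits, which bind kB elements, 3 of 5 rose and 2 were not called, where 17.3% of all genes were called higher. NFKB2 rose by 0.48 (SE 0.071, limma adjusted p = 0.0013), RELB by 0.35 (SE 0.11, limma adjusted p = 0.0422) and REL by 0.23 (SE 0.058, limma adjusted p = 0.0168). These calls were not stable, and 1 of 3 probe sets of NFKB2 and 1 of 5 of REL were called. NFKB2 changed by -0.012 without probe sets ending in _x_at or _s_at, RELB was lost with 4 of the 6 arrays left out in turn, and REL with 3.

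MHC class II genes and interferon-stimulated genes were measured on the same arrays, where 17.3% of all genes were called higher and 17.5% lower. Of 11 class II genes, 9 rose and 2 were not called, with a median log2 change of 2.47. The antigen-presenting chains HLA-DRA (4.13, limma adjusted p = 1.18e-06), HLA-DPA1 (3.93, limma adjusted p = 2.88e-07) and HLA-DRB1 (3.50, limma adjusted p = 1.86e-06) changed more on the log2 scale than any heavy chain of class I. Of 38 interferon-stimulated genes, 25 rose, 2 fell and 11 were not called, with a median of 0.62. Largest were BST2, which tethers virus particles (2.19, limma adjusted p = 4.00e-05), TRIM22, an antiviral ubiquitin ligase (1.82, limma adjusted p = 3.71e-06), and GBP2, a guanylate-binding protein (1.77, limma adjusted p = 3.32e-06). The monolayer values of TRIM22 (98.3 to 102) lay below the array median, so its fold is uncertain. The differences between these lists and the 10 genes were not tested.

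The genes whose pattern was most like the mean of the 10 genes were LAMA4, a laminin chain (Pearson r = 0.9996 over 6 arrays), MARCKSL1 (0.9992), the adhesion molecule CD58 (0.9990), the metalloprotease ADAM8 (0.9990) and POFUT4 (0.9990). LAMA4 had 330.0, 280.7 and 318.2 in monolayer and 764.0, 745.7 and 755.8 in oncospheres, so that monolayer 2 was lowest in its group, as it was for most of the 10 genes. The correlation is mostly that of 2 groups apart from each other: 1846 of 12455 genes brighter than the median probe set had an r over 0.95. It is a description over 6 points that share the 2 groups.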

How the data were processed

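RNA (100 ng of total RNA per array) of 3 monolayer and 3 oncosphere cultures was hybridized to Affymetrix U133 Plus 2.0 arrays. The authors normalized the raw data by RMA per the methods, the submitters' processing notes name affy, and no version is given in the sources used here. Values of deposited intensity per probe set were linear with a lowest value of 48.02, so log2 was taken before any fit. Whether they were rescaled or floored was not settled, and changes near the lowest values are uncertain. The number of arrays limits the precision.

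Controls (62) were left out. Of 54613 probe sets, 41091 had 1 gene symbol in the platform annotation, 1801 several and 11721 none. A gene was represented by its brightest single-symbol probe set (19775 genes). Groups came from the sample titles. Oncospheres were compared with monolayer by limma 3.58.1 (R 4.3.3) with Benjamini-Hochberg adjustment over all probe sets, the empirical Bayes test that the study methods state, called at an adjusted p below 0.05. The procedure was tested on simulated data. Promoters were searched with Python 3.11.15 and aligned with Biopython 1.88.

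The members and gene lists were chosen with earlier results of these data known. Named were all members, the counterpart and coactivator genes PSMB5, PSMB6, PSMB7, PSMB10, NLRC5 and IRF1, and up to 3 called, non-overlapping genes per list with the largest absolute change. The 5 genes most like the member mean were also named. The markers of cell type and POMP fall outside this rule and were chosen after their values were seen. Alternatives were other scalings, filters, fits, probe set choices and each array left out in turn.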

Additional observations from a re-analysis of the deposited data

How the results depend on the processing

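Across the alternatives that kept all arrays, the log2 changes of the 10 genes kept their sign. Of 106 values, 46 equalled the reported one, most of them under settings that cannot move a log2 change, and of the other 60, 51 moved by less than the spread between replicates and 9 by more. Of the other named genes, 14 values lost the call and 1 reversed. Member probe sets called higher (21) became 5 when probe sets ending in _x_at or _s_at were left out. That setting kept only 9 of the 26 member probe sets, from 6 of the 10 genes. Member probe sets called lower (2) became 1 with cyclic loess or without _x_at and _s_at probe sets. They also became 1 at an adjusted p below 0.01 or with the 5th percentile subtracted (floor of 16). Of the probe sets fitted, 28.4%, 24.3%, 19.2% and 24.5% were called in these settings in turn, against 28.7% in the main fit. The median log2 change of the 10 genes (1.15) became 0.98 with a gene's probe sets averaged, 0.83 without _x_at and _s_at probe sets and 1.24 with the 5th percentile subtracted. Other pathway genes called lower (13) became 7 at an adjusted p below 0.01. Interferon-stimulated genes called lower (2) became 1 with cyclic loess, without _x_at and _s_at probe sets, at an adjusted p below 0.01, or with the 5th percentile subtracted. NFKB2 changed by -0.012 without _x_at and _s_at probe sets. Where the construction does not show the cause, it was not tested.

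With each array left out in turn, 20 to 21 member probe sets were called higher and 1 to 2 lower. The share of all probe sets called was 23.3% to 28.1%. The brightest TAP2 probe set was lost without monolayer 1, monolayer 2, oncospheres 1 or oncospheres 3. The median log2 change of the member genes was 1.10 to 1.18. Of other pathway genes, 24 to 27 were called higher and 10 to 14 lower. Of interferon-stimulated genes, 23 to 27 were called higher and 1 to 2 lower (1 without each monolayer array in turn), and of class II genes 8 to 9 higher. RELB lost its call without monolayer 2, monolayer 3, oncospheres 1 or oncospheres 3 (limma adjusted p of 0.112, 0.0932, 0.114 and 0.13), and REL without monolayer 1, monolayer 2 or oncospheres 1 (0.0596, 0.0547 and 0.0638). Averaged over its probe sets, PSMB7 was not called (-0.13, limma adjusted p = 0.363). That average gave equal weight to the dim second probe set of PSMB7 (84.5 to 137.1 in monolayer), which overlapped between groups.

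Deviations from group means correlated at 0.0685, 0.0822 and 0.0890 between arrays of the same replicate number and at -0.0759 to 0.00102 between arrays of different numbers. Each array thus correlated best with its own number, a hint from the data and not the design, but below the 0.1 required here to treat the samples as paired. With the replicate block, 20 member probe sets were called higher and 2 lower, 28.3% of all probe sets were called, the median log2 change stayed at 1.15, and 28 other pathway genes were called higher and 16 lower. A comparison of member proteins was not run.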
